A study of Mus musculus with 3 samples.

Results

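The genes described are the chemokines and chemokine receptors of the mouse, measured by RNA-seq in the distal colon. They were taken by symbol: every numbered Ccl and Cxcl ligand, Xcl1, Cx3cl1, Pf4 and Ppbp, and every Ccr, Cxcr, Xcr1, Cx3cr1, Ccrl and Ackr receptor. The pattern took 65 of the 24346 gene symbols with values, 41 ligands and 24 receptors, and no measured value entered the choice. The series holds 1 group of 3 libraries, labelled as distal colon of wild-type mice, with JAX in the titles. The mice were 8 weeks old and at steady state, with no treatment and no altered allele in any of them. With 1 group there was no comparison between conditions, and the question was which chemokine messages the tissue holds at rest and whether their receptors are present with them.

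Nothing in the labels says that the 3 libraries came from separate animals, and the names of the deposited tables share 1 index and 1 lane and differ by a running number. A test described at the end took 8771 genes, and for all but 10 of them it found no difference between the 3 tables beyond sampling noise. The tables count here as 1 sample. A mean ± SD below is therefore over 3 files counted as 1 sample, and it is not read as a spread between animals. Replicates 1 and 2 were equally deep, at 3.78e+06 and 3.79e+06 mapped fragments by the width of the deposited bounds, and replicate 3 was shallower, at 1.24e+06. Levels are in FPKM, that is fragments scaled to transcript length and to the mapped fragments of the library, summed over the isoforms of a gene, so they can be compared between genes. All 9 genes listed for distal colon epithelium were above 10 FPKM, among them Car1, a carbonic anhydrase, at 454 ± 9.11 and the posterior patterning gene Hoxb13 at 195 ± 0.610. Genes better known from other places were present too. Of 11 small intestine genes 7 were at 1 FPKM or more in each file, led by Fabp6, a bile acid carrier of the ileum, at 95.6 ± 5.85, while Lct was at 0.0440 ± 0.0441 and Gata4 was listed at 0. All 7 liver genes reached it as well, with Alb at 129 ± 5.35, and the part of such RNA in the levels below was not tested.

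Chemokines are small secreted proteins that bind G protein-coupled receptors on leukocytes and set the direction in which these cells move. Some are made at rest and place lymphocytes in tissues, and are called homeostatic. Others are made after injury or infection and call in neutrophils and monocytes, and are called inflammatory. Atypical receptors bind the same ligands without G protein signalling and take them up or carry them across a cell. In the gut, epithelial chemokines are known for drawing antibody-secreting cells and intraepithelial lymphocytes into the mucosa.

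The ligands ranged from 0 to 115 FPKM and the receptors from 0 to 8.52 FPKM. Of the 65 genes, 27 (41.5%) reached 1 FPKM in every file, beside 48.5% of all 24346 genes, so the family was not richer in detected genes than the annotation as a whole. The median over the 65 means was 0.962 FPKM, and over all genes it was 1.25 FPKM. Of the 41 ligands 19 did so, and their median was 1.77 FPKM. Of the 24 receptors 8 did so, and their median was 0.562 FPKM. The summed level of the ligands was 368 ± 8.03 FPKM and that of the receptors 35.2 ± 1.12 FPKM. In whole tissue RNA, fewer cells of a type and less RNA per cell cannot be told apart.

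A few ligands held most of the message. Ccl6 alone made up 31.3% of the summed ligand level. Ccl6, Ccl28, Cxcl12 and Ccl21a together made up 65.9%, and with Cx3cl1 the share was 73.0%. In the order of means, Ccl6 lay above Ccl28 and Ccl28 above Cxcl12 with no overlap between files. Cxcl12 and Ccl21a overlapped. Ccl21a lay above Cx3cl1, and Cx3cl1 above Pf4, again with no overlap. From Pf4 down through the 31 genes with a mean of at least 1 FPKM, every gene overlapped with the next except Ccl25, which lay above Cxcr4. The shares and the place of Ccl21a depend on how reads were split among the near-identical Ccl21 copies described below.

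**Figure D1:**
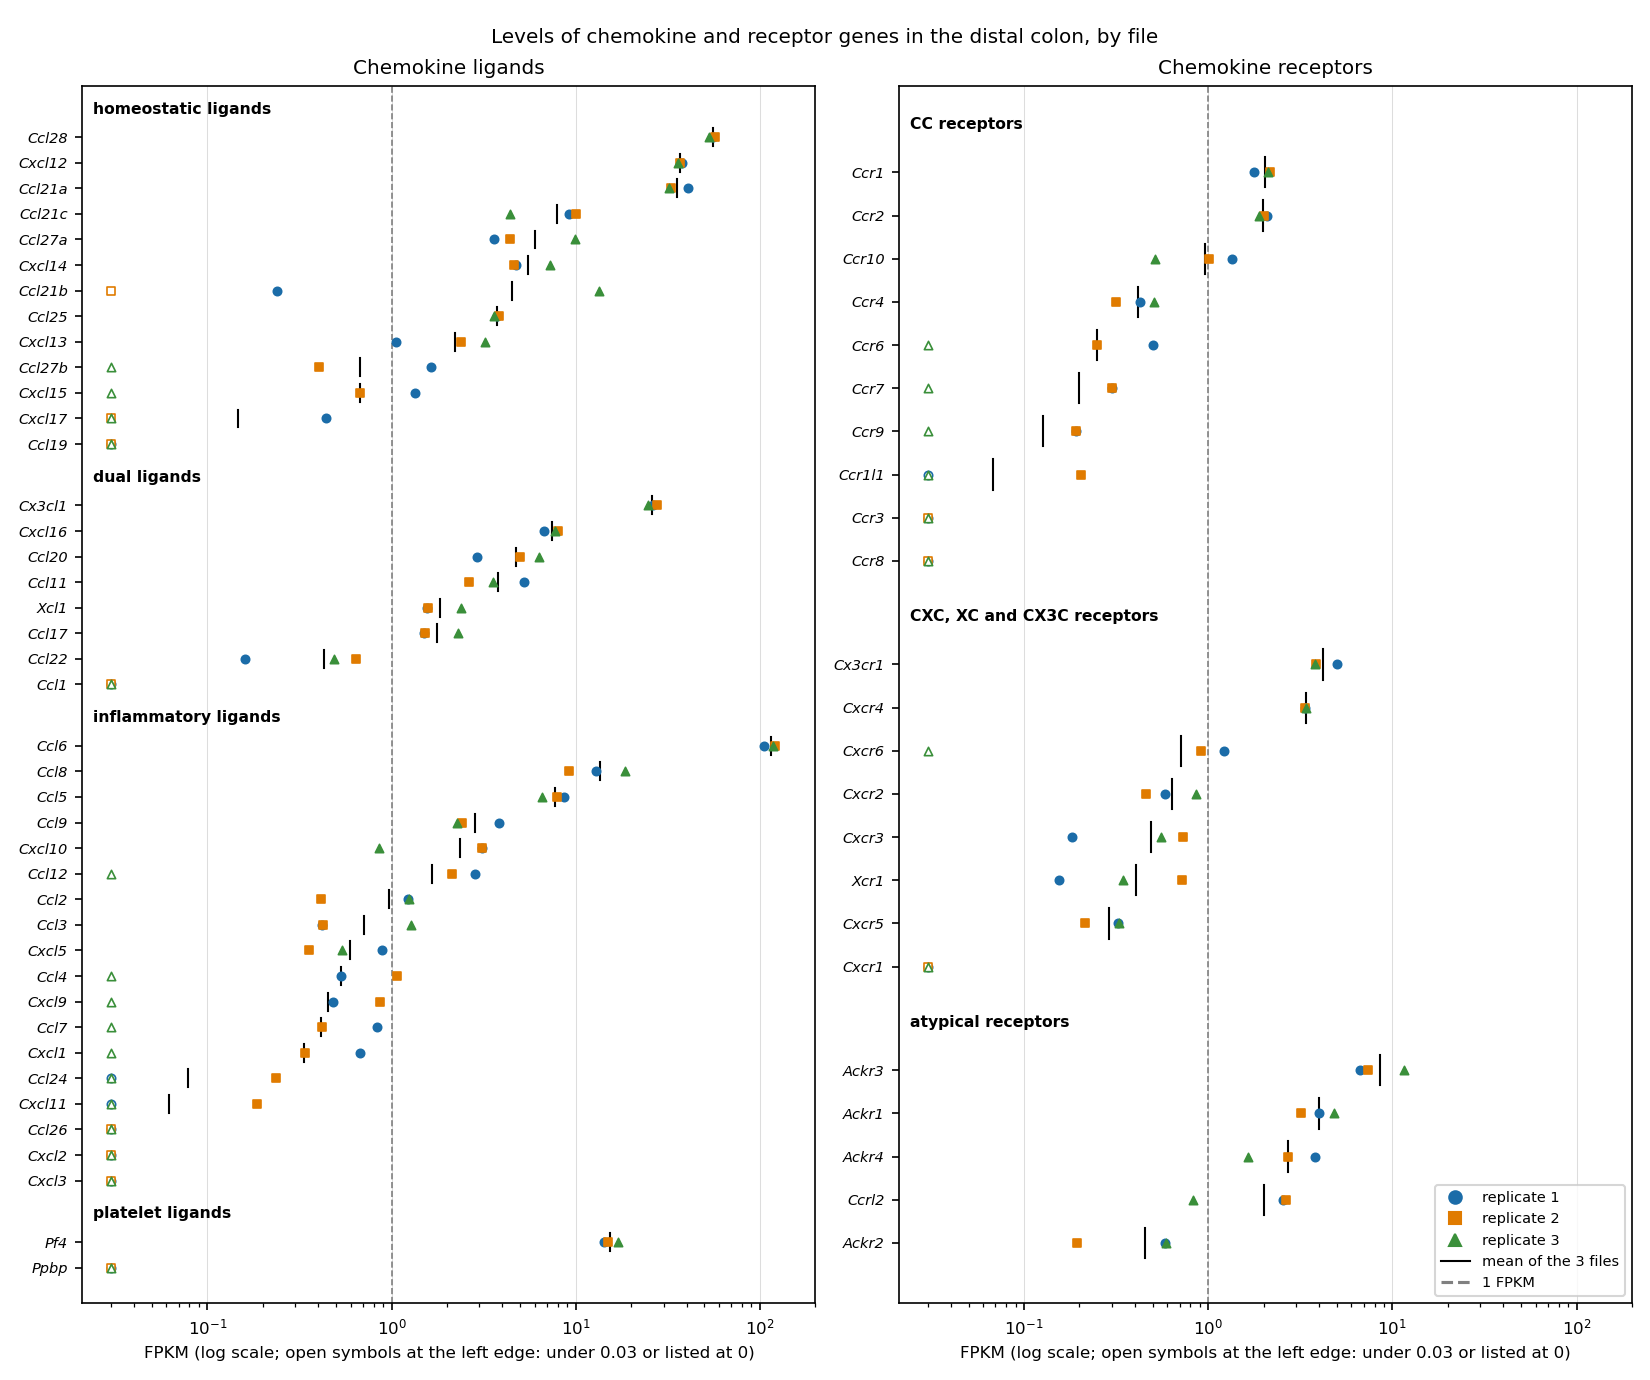
FPKM of 64 of the genes in replicate 1 (circles), 2 (squares) and 3 (triangles) on a log axis, with the mean as a black bar and 1 FPKM as a dashed line. Ccl6, Ccl28, Cxcl12, Ccl21a and Cx3cl1 lie at 26.1 to 115 FPKM with their files close together, whereas no receptor mean exceeds 8.52 FPKM.

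The 13 homeostatic ligands had a median of 4.52 FPKM and held 43.2% of the summed ligand level, and 8 of them reached 1 FPKM in every file. The 8 ligands known for both roles, called dual here, had a median of 2.81 FPKM and held 12.6%, with 6 at that level. The 18 inflammatory ligands had a median of 0.563 FPKM, with 4 at that level, yet held 40.0% of the sum because of Ccl6. Without Ccl6 the homeostatic share was 62.9% and the inflammatory share 12.8%. The classes follow textbook usage, and Ccl6 is also known to be made by resting macrophages. The homeostatic median was the mean of Ccl21b, a symbol whose values differed widely between the files. The ligand sum leaves out the Ccl21 copy Gm13304, at 23.6 FPKM, which the symbol pattern did not take.

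Ccl28, the mucosal chemokine that draws IgA-secreting cells through Ccr10, was the highest homeostatic ligand. It measured 55.9 FPKM in replicate 1, 57.1 in replicate 2 and 52.8 in replicate 3, a mean of 55.3 ± 2.21 FPKM resting on 1743 fragments. The 3 files lay close together, and all were above the highest value of Cxcl12. The gene lies at chr13:119623819-119654358 (GRCm38, as are all positions here). Its receptor Ccr10 was much lower, at 1.35, 1.02 and 0.515 FPKM, or 0.962 ± 0.422 from 15 fragments. Markers of plasma cells, the cells this pair is known to guide, were measured in the same tissue, with the joining chain gene Jchain at 314 ± 10.3 FPKM and 6 of 7 listed markers at 1 FPKM or more in every file. The other markers ranged from Prdm1 at 1.07 ± 0.305 FPKM, which was not, to Xbp1 at 82.4 ± 5.92. Sdc1, also in this list, is named again below as a proteoglycan. Here and for the cell markers named further on, their part in a chemokine level was not tested.

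Cxcl12, which retains Cxcr4-bearing cells near stroma and vessels, measured 37.8, 36.7 and 36.0 FPKM in the 3 files, a mean of 36.8 ± 0.946 FPKM. It is a 1-gene ligand with several protein forms that differ at the carboxyl end. The tables list 3 forms, and the last coding bases of each are printed here because the choice of the last exon is what separates them. Sequences are coding strand, 5′ to 3′, from GENCODE M21 transcripts of GRCm38, and capitals mark the bases that follow the shared part, stop codon included.
Cxcl12 NM_021704: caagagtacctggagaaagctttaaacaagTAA
Cxcl12 NM_013655: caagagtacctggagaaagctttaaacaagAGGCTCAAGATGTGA
Cxcl12 NM_001012477: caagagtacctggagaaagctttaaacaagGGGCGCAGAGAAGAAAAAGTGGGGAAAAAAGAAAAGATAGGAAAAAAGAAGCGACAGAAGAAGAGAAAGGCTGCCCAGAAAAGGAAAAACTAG

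These forms code for 89, 93 and 119 amino acids and are known as the alpha, beta and gamma forms. They share their first 267 coding bases, on the plus strand of chr6:117168535-117181368, and the gamma form adds 93 bases of its own that code for a basic tail. The alpha form NM_021704 held 85.96% of the gene's FPKM in replicate 1 and 81.2% in replicate 3, a mean of 84.9% ± 3.28. The beta form NM_013655 held 9.30% ± 3.52 and the gamma form NM_001012477 held 5.78% ± 1.95. The alpha form was the main one in all 3 files, and the beta and gamma ranges overlapped.

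Ccl21 guides Ccr7-bearing dendritic cells and T cells into lymphatic vessels and lymph nodes, and in the mouse it is carried by several near-identical genes on chromosome 4. The stretch below is shown because it spans both coding differences between Ccl21a and the other copies. Capitals mark the differing bases, at coding bases 84 and 194 counted from the A of the start codon, and each stretch runs from coding base 69 to 209.
Ccl21a: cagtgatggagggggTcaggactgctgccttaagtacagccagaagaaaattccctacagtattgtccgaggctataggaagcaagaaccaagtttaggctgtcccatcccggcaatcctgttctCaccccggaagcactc
Ccl21b: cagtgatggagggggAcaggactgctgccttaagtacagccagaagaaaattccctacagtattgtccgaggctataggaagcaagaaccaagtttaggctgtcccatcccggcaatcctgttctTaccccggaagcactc
Gm13304: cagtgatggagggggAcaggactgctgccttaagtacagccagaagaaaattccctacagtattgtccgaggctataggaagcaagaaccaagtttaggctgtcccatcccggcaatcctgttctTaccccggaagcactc

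Over the 402 coding bases Ccl21b differed from Ccl21a at 2, T84A and C194T (Ccl21a's base first), an identity of 99.5%. Gm13304, a symbol outside the pattern, had the same 2 substitutions and the same coding bases as Ccl21b. Ccl21c had no sequence in the transcript set used here. Ccl21a, at chr4:42772860-42773991, measured 40.8, 32.9 and 32.3 FPKM, a mean of 35.3 ± 4.76 FPKM. Gm1987, which overlaps it, held 0.821 ± 0.575 FPKM. The Ccl21a transcript matched that of Gm13304 at 99.4% identity over 837 of 870 bases. The level of Ccl21a is thus uncertain as well, since it depends on how shared reads were assigned.

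The other symbols moved between files in opposite directions. Ccl21b was listed at 0.24 FPKM in replicate 1, 0.00584 in replicate 2 and 13.3 in replicate 3, a mean of 4.52 ± 7.62 FPKM. Ccl21c was listed at 9.21, 10.05 and 4.42 FPKM, a mean of 7.89 ± 3.04 FPKM. Gm13304 was listed at 27.4, 30.2 and 13.3 FPKM, a mean of 23.6 ± 9.07 FPKM. Ccl21b was high in replicate 3 alone, and there the other pair was at its lowest.

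Ccl21b is listed at 4 places on chromosome 4, which it shares with Gm13304 at 3 of them and with Ccl21c at the other. Summed by place, the level was 9.02 ± 1.23 FPKM at chr4:41903613-41904743 and 8.99 ± 1.11 at chr4:42114787-42115917. It was 9.04 ± 1.15 FPKM at chr4:42255695-42256825 and 8.98 ± 1.18 at chr4:42612123-42613253. The 4 places thus had nearly equal values in each file. Since Ccl21b and Gm13304 have the same coding bases, these values do not show how much each place is transcribed. The sum of the 3 symbols was 36.9, 40.2 and 31.0 FPKM, or 36.0 ± 4.67, and its SD was 12.9% of its mean, where for Ccl21b alone it was 169%. The level of each of these symbols is uncertain, and their sum is the better determined value. All Ccl21 symbols together came to 78.2, 73.6 and 64.8 FPKM, a mean of 72.2 ± 6.82 FPKM, which lay above every file's value of Ccl28.

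**Figure D2:**
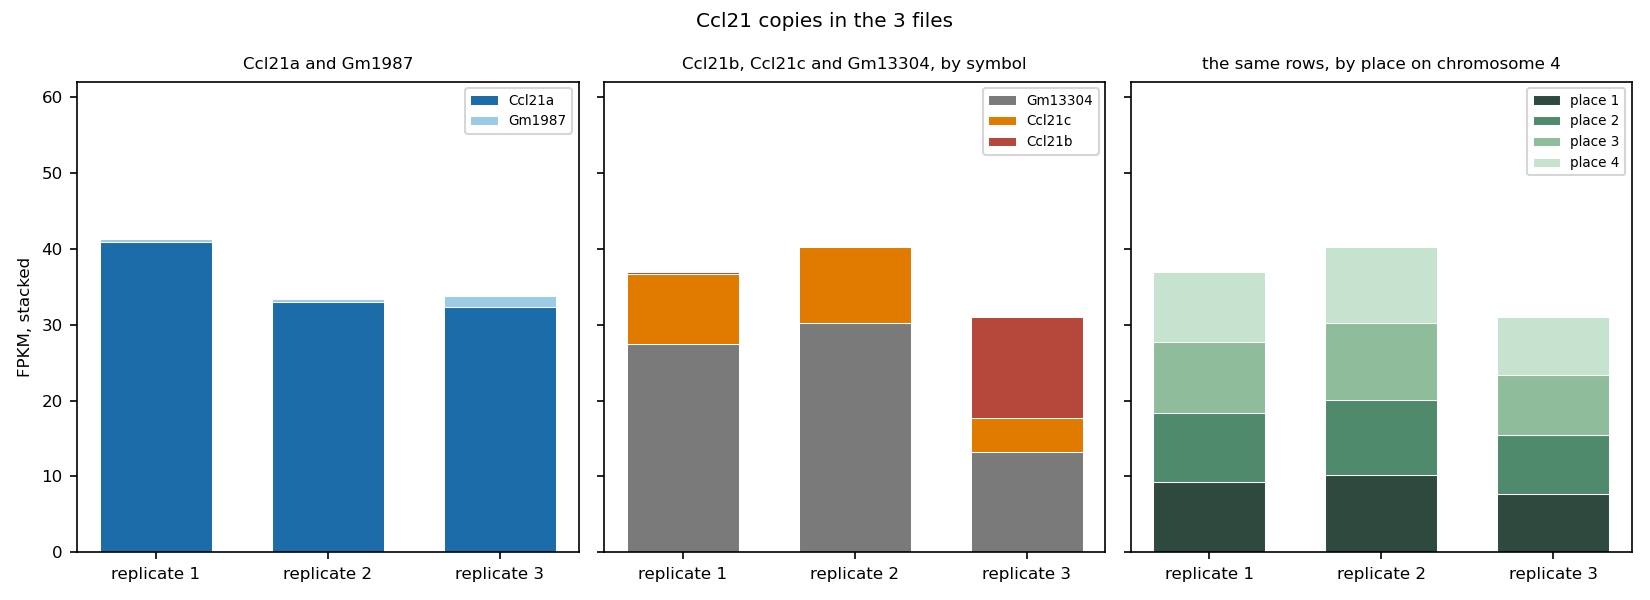
Stacked FPKM of the Ccl21 symbols in the 3 files: Ccl21a with Gm1987 (left), Ccl21b, Ccl21c and Gm13304 by symbol (middle), and the same rows summed by their 4 places on chromosome 4 (right). The split between symbols differs in replicate 3, where Ccl21b holds 13.3 FPKM, while the 4 places stay nearly equal in each file. With such near-identical copies, the values by place do not show how much each place is transcribed.

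Lymphatic endothelium is the known source of Ccl21 in peripheral tissue, and 4 of its 6 listed markers reached 1 FPKM in every file, with Lyve1 at 11.7 ± 1.27 FPKM and the lineage factor Prox1 at 0.266 ± 0.266. Ccr7, the signalling receptor of Ccl21, was near the limit of detection, at 0.30 FPKM in replicates 1 and 2 and 0 in replicate 3, a mean of 0.20 ± 0.173 FPKM. Ccl19, the other Ccr7 ligand, was listed at 0 in every file, which allows up to 0.646 FPKM. Ackr4, the atypical receptor that takes up Ccl21, Ccl19 and Ccl25, measured 3.81, 2.72 and 1.65 FPKM, a mean of 2.73 ± 1.08 FPKM, and it overlaps Acad11, which stood at 28.1 FPKM. So the scavenging receptor was read at a higher level than Ccr7 in every file.

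Ccl27a, a skin chemokine that also binds Ccr10, was listed at 3.60, 4.40 and 9.96 FPKM, a mean of 5.99 ± 3.46 FPKM. Its copy Ccl27b was listed at 1.63, 0.403 and 0 FPKM, a mean of 0.678 ± 0.850. The related symbol Gm13306 was listed at 0 throughout. The sum over the 3 Ccl27 symbols was 5.23, 4.80 and 9.96 FPKM, and the copies share runs of over 99% identity, so their split is uncertain as well. The tables list 2 expressed messages of Ccl27a that start at different first exons, and the start of each coding sequence is printed because the first part decides whether a signal peptide is coded. Capitals mark the bases before the shared part, on the minus strand of chromosome 4.
Ccl27a NM_011336: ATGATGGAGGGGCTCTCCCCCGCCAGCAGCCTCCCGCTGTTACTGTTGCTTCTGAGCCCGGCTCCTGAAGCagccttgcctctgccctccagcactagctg
Ccl27a NM_001048179: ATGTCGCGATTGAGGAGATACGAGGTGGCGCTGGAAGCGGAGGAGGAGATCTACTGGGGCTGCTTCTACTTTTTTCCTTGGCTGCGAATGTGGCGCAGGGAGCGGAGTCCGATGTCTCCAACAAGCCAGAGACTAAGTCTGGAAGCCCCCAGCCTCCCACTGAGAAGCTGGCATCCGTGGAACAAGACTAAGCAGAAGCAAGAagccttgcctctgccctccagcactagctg

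NM_011336 codes for 120 amino acids and is the secreted form, and NM_001048179 codes for 164 and is known as the non-secreted form. The first has 71 coding bases of its own and the second 203, before 292 that they share. In replicate 1 all of the gene's FPKM was assigned to NM_001048179, and in replicate 3 all of it to NM_011336. The whole gene rested on about 8.29 fragments, and its locus overlaps Il11ra1, an interleukin receptor gene at 9.71 ± 0.899 FPKM. At this depth no form could be called the main one.

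Among the other homeostatic ligands, Cxcl14, an epithelial chemokine, measured 4.77, 4.61 and 7.25 FPKM (5.54 ± 1.48). Ccl25, which draws Ccr9-bearing T cells to the small intestine, measured 3.74, 3.85 and 3.59 FPKM (3.73 ± 0.127). Ccl25 was assigned to NR_033527, a non-coding entry that starts beside Elavl1, for nearly all of its FPKM in replicate 1, and to the coding NM_009138 for 99.7% in replicate 3, so the coding form is not settled by these files. Its receptor Ccr9 had a mean of 0.127 ± 0.110 FPKM. Cxcl13, the B cell follicle chemokine, measured 1.06, 2.39 and 3.22 FPKM (2.22 ± 1.09), with the B cell marker Cd79b at 2.48 ± 0.130 FPKM and Pax5 listed at 0. Its receptor Cxcr5 had a mean of 0.289 ± 0.0636 FPKM. Of 8 listed B cell markers, 1 reached 1 FPKM in every file, Cd79b. Cxcl15, a chemokine known from lung, was at a mean of 0.673 FPKM, and Cxcl17 was at 0.148 FPKM from 1 fragment.

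**Figure D3:**
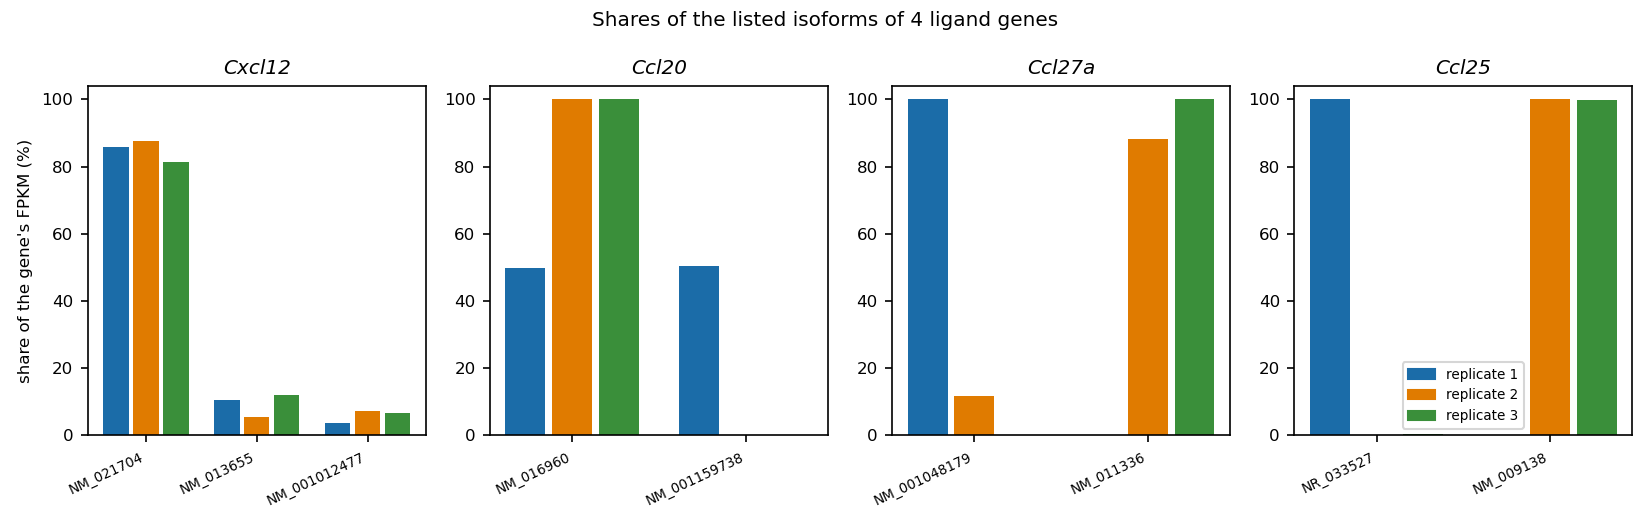
Share of a gene's FPKM assigned to each listed isoform of Cxcl12, Ccl20, Ccl27a and Ccl25 in the 3 files, in percent. Cxcl12 keeps 1 main form in every file, while Ccl20, Ccl27a and Ccl25 are assigned to different forms in different files.

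Cx3cl1, the membrane-anchored chemokine also called fractalkine, was the highest dual ligand. It measured 26.3, 27.5 and 24.6 FPKM, a mean of 26.1 ± 1.48 FPKM from 686 fragments, at chr8:94772180-94782426. Its only receptor Cx3cr1, the marker receptor of resident gut macrophages, measured 5.01, 3.83 and 3.81 FPKM, a mean of 4.22 ± 0.688 FPKM from 135 fragments. The ligand was above the receptor in every file, by 6.19 times on the means. The sheddases that release Cx3cl1 and Cxcl16 from the membrane were present, Adam10 at 34.2 ± 1.82 FPKM and Adam17 at 10.6 ± 0.386 FPKM.

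Cxcl16, the other membrane-bound chemokine, measured 6.71, 7.98 and 7.74 FPKM (7.48 ± 0.675), and it shares sequence with its neighbour Zmynd15, which stood at 1.14 FPKM. Cxcr6, its receptor on T cells and innate lymphoid cells, had a mean of 0.713 ± 0.636 FPKM. Ccl20, which the epithelium over lymphoid follicles makes to attract Ccr6-bearing cells, measured 2.90, 4.98 and 6.29 FPKM (4.72 ± 1.71). The 2 listed forms of Ccl20 differ by 1 codon at a splice site, shown in capitals.
Ccl20 NM_016960: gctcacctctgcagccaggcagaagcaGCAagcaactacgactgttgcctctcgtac
Ccl20 NM_001159738: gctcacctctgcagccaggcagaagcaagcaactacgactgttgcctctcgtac

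The longer form NM_016960, of 97 amino acids against 96, held 49.7% of the gene's FPKM in replicate 1 and nearly all of it in replicate 3. With 17.8 fragments in all, the share of the 2 forms could not be fixed. Ccr6 had a mean of 0.250 ± 0.250 FPKM. Ccl11, or eotaxin, which attracts eosinophils through Ccr3, measured 5.23, 2.62 and 3.53 FPKM (3.79 ± 1.33). Ccr3 was listed at 0 in every file, which allows up to 0.111 FPKM, and 0 of 5 eosinophil markers reached 1 FPKM in every file. Epx and Ear1 were listed at 0 and Siglecf was at 0.237 ± 0.120 FPKM, while Ear2 was the highest, at 2.15 FPKM in replicate 1, near 0 in replicate 2 and 1.45 in replicate 3.

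Xcl1, which binds Xcr1 on cross-presenting dendritic cells, measured 1.56, 1.57 and 2.37 FPKM. Ccl17, a ligand of Ccr4, measured 1.51, 1.52 and 2.29 FPKM. Each of the pair rested on 4.99 fragments, with 1 fragment in replicate 3, so their places above 1 FPKM are weakly held. Ccl22, the other Ccr4 ligand, had a mean of 0.430 ± 0.246 FPKM. Ccl1 was listed at 0, which allows up to 1.09 FPKM.

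Ccl6, a myeloid chemokine of rodents that acts through Ccr1, was the highest of the 65 genes. It measured 105 FPKM in replicate 1, 121 in replicate 2 and 118 in replicate 3, a mean of 115 ± 8.49 FPKM from 1249 fragments, at chr11:83587886-83593087. That placed it at rank 547 among all 24346 genes. All files lay far above the next gene, Ccl28. Macrophage markers were present, with 9 of 10 at 1 FPKM or more in every file, Lyz2 at 125 ± 4.26 FPKM and C1qa at 30.8 ± 2.39 FPKM.

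Ccl8, a monocyte chemoattractant whose mouse form binds Ccr8, measured 12.9, 9.17 and 18.5 FPKM (13.5 ± 4.69). Ccl5, or RANTES, made by T cells and natural killer cells, measured 8.62, 7.95 and 6.56 FPKM (7.71 ± 1.05), beside the T cell markers Cd3e at 2.65 ± 0.543 FPKM and Cd8a at 0.484 ± 0.296. Of 10 listed T cell markers, 3 reached 1 FPKM in every file. Ccl9, a myeloid chemokine next to Ccl6, measured 3.82, 2.42 and 2.26 FPKM (2.83 ± 0.858). These 3 and Ccl6 were the only inflammatory ligands at 1 FPKM or more in every file.

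Cxcl10, an interferon-induced ligand of Cxcr3, measured 3.10, 3.11 and 0.858 FPKM (2.36 ± 1.30), and it shares sequence with Art3, which stood at 10.5 FPKM. Its relatives Cxcl9 and Cxcl11 had means of 0.450 and 0.0620 FPKM. Ccl12, a monocyte chemoattractant, measured 2.83, 2.14 and 0 FPKM (1.66 ± 1.48) from 7 fragments, and its mean was 1.07 FPKM without replicate 1. Ccl2, the main Ccr2 ligand, had a mean of 0.966 ± 0.479 FPKM. Ccl7, Ccl3 and Ccl4 lay at 0.416, 0.709 and 0.533 FPKM.

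The neutrophil chemokines were low or undetected. Cxcl5 had a mean of 0.593 FPKM and Cxcl1 of 0.337 FPKM. Cxcl2 and Cxcl3 were listed at 0 in every file, which allows up to 0.383 and 0.413 FPKM. Their receptor Cxcr2 had a mean of 0.634 ± 0.205 FPKM, and Cxcr1 was listed at 0. Of 6 neutrophil markers with values 5 were listed at 0, S100a8, S100a9, Mpo, Elane and Retnlg, and Csf3r was at 0.416 ± 0.172 FPKM. The eosinophil-attracting Ccl24 was at 0.0784 FPKM from 1 fragment and Ccl26 was listed at 0. For Ccl26, a very short entry, 3 fragments allow up to 3.83 FPKM, so its place below 1 FPKM is not shown.

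Pf4, the platelet chemokine also called Cxcl4, measured 14.3, 15 and 17.0 FPKM, a mean of 15.4 ± 1.41 FPKM, at chr5:90772435-90773383. Ppbp, the other abundant platelet chemokine, was listed at 0 in every file, which allows up to 0.384 FPKM. Among the platelet and megakaryocyte markers Gp9 was listed at 0 and Itga2b was at 0.136 ± 0.0952 FPKM, and only Itgb3, which other cells also make, exceeded 1 FPKM, at 4.62 ± 0.320. The markers Itga2b and Gp9 were therefore at or near 0 where Pf4 was high. Pf4 had no near-identical copy at a match of at least 100 bases and 97% identity.

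The receptors were read from few fragments, 26.8 to 135 recovered for each of the 9 with a mean of at least 1 FPKM. The lowest of these, for Ccrl2, is a lower bound because the gene has several isoforms. Of the atypical receptors 3 of 5 were at 1 FPKM or more in every file, and their median was 2.73 FPKM. Of the signalling receptors 5 of 19 were, and their median was 0.417 FPKM. No test was made of that difference. Their summed level, 17.7 ± 1.72 FPKM over 5 genes, was close to the 17.5 ± 1.28 FPKM summed over the 19 signalling receptors, and the ranges of the 2 sums overlapped between files.

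Ackr3, which scavenges Cxcl12 and Cxcl11, was the highest receptor, at 6.64, 7.34 and 11.6 FPKM (8.52 ± 2.68). Ackr1, the Duffy antigen that carries chemokines across venules, measured 3.99, 3.19 and 4.85 FPKM (4.01 ± 0.828), beside the endothelial markers Plvap at 16.1 ± 1.57 FPKM and Pecam1 at 10.7 ± 0.193. Ccrl2, which presents chemerin rather than chemokines, measured 2.54, 2.65 and 0.826 FPKM (2.00), and Rarres2, the gene of chemerin, was at 59.1 ± 14.3 FPKM. Ackr2, the scavenger of inflammatory CC ligands, was at 0.454 FPKM.

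Of the signalling receptors, Cx3cr1 and Cxcr4 led. Cxcr4, the Cxcl12 receptor, measured 3.36, 3.36 and 3.41 FPKM, a mean of 3.38 ± 0.0263 FPKM. Its 3 files agreed more closely than the 49 fragments behind them would give on average. Ccr1 measured 1.78, 2.18 and 2.11 FPKM (2.02 ± 0.211). Ccr2, the receptor of inflammatory monocytes, measured 2.08, 2.01 and 1.88 FPKM (1.99 ± 0.104).

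These 4 signalling receptors, Cx3cr1, Cxcr4, Ccr1 and Ccr2, are all known on monocytes and macrophages. Cxcr4 is as well known from lymphocytes. Cxcr3 and Ccr4, receptors of T cells, were at 0.490 and 0.417 FPKM, and Xcr1, a dendritic cell receptor, was at 0.405 FPKM. Ccr1l1 was at 0.0680 FPKM from 1 fragment and Ccr8 was listed at 0, which allows up to 0.354 FPKM.

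Receptors were then set beside their known ligands, in 47 pairs of 19 receptors and 36 ligands. Both partners reached 1 FPKM in every file in 10 pairs, only the ligand in 13, only the receptor in 10 and neither in 14. The pairs with both included Cxcl12 with Cxcr4 and with Ackr3, Cx3cl1 with Cx3cr1, Ccl5, Ccl6 and Ccl9 with Ccr1, and Ccl21a, Ccl21c and Ccl25 with Ackr4. Of these, the Ccl21a, Ccl21c and Ccl25 pairs rest on levels that are uncertain for the reasons given above. At 2 FPKM only 3 pairs remained. Since the pairs share partners, they are not independent of each other.

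Among pairs with neither partner at 0, the widest ratio of means was that of Ccl21a to Ccr7, 177 times, which divides by a level resting on 2.05 fragments. Ccl8, Ccl5 and Ccl11 also had partners listed at 0, Ccr8 for the first and Ccr3 for the others. The ratio was 57.5 times for Ccl28 and Ccr10, 56.8 times for Ccl6 and Ccr1, and 10.9 times for Cxcl12 and Cxcr4. These ratios compare message per length, in a tissue where ligand and receptor may come from different cells. The mean of Ccr2, 1.99 FPKM, was above those of its ligands Ccl2 and Ccl7. Ccl12 lay above Ccr2 in replicates 1 and 2 and was listed at 0 in replicate 3, so no order is given for that pair. Ccl20, Cxcl16, Cxcl13, Xcl1 and Ccl17 reached 1 FPKM in every file although their receptors Ccr6, Cxcr6, Cxcr5, Xcr1 and Ccr4 did not.

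**Figure D4:**
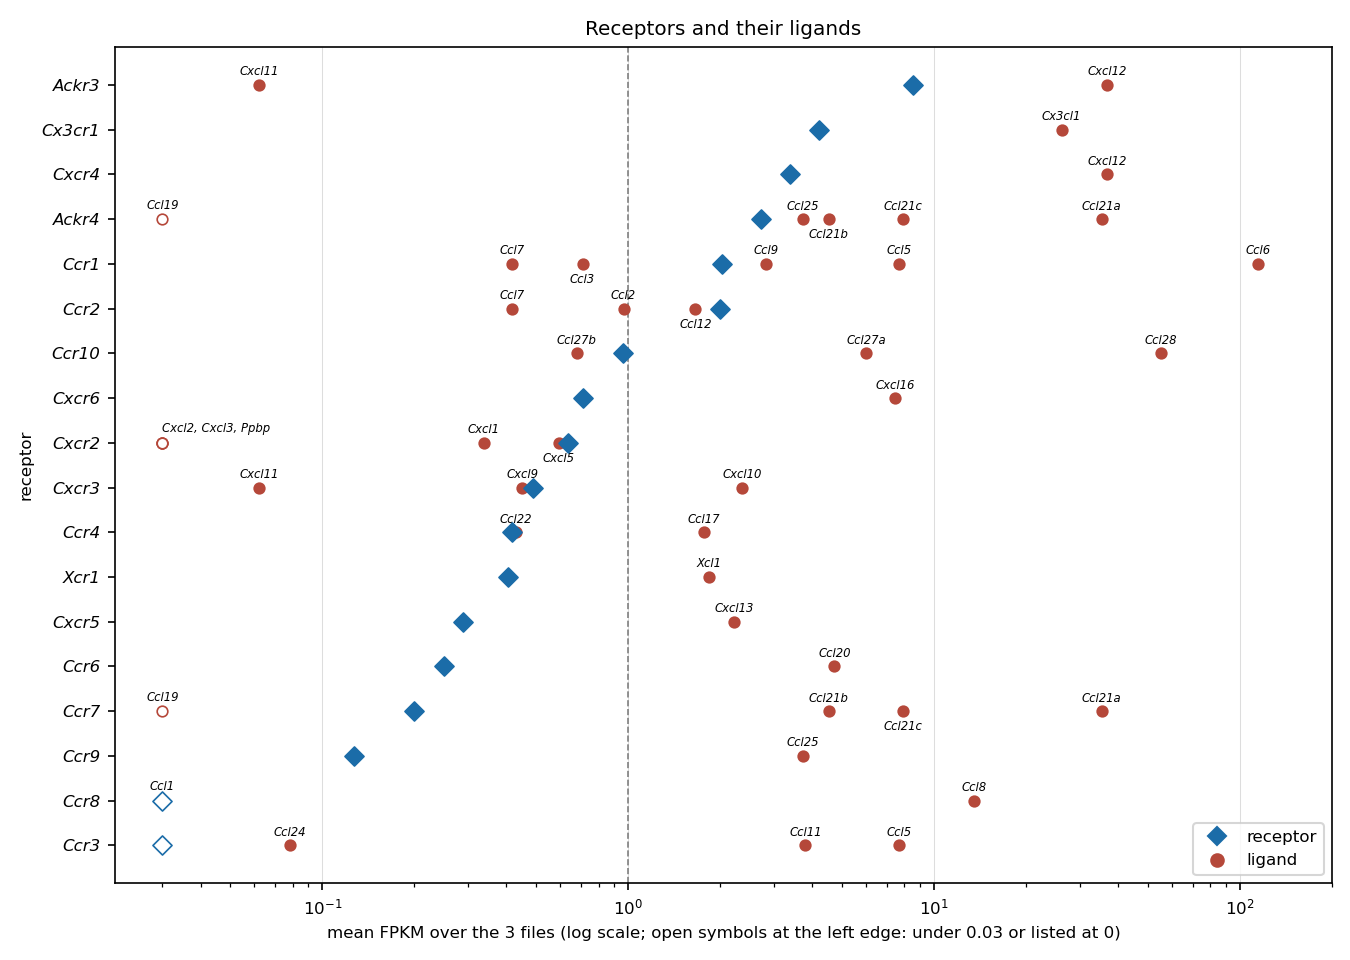
Mean FPKM of 18 receptors (diamonds) and of their ligands (circles, named) on a log axis, receptors ordered by level, with 1 FPKM as a dashed line. For Ackr3, Cx3cr1, Cxcr4, Ackr4, Ccr1 and Ccr2 the means of the receptor and of at least 1 ligand lie above 1 FPKM. Ccl28, Ccl21a and Ccl8 lie far to the right of receptors under 1 FPKM.

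Chemokine genes sit in clusters, and neighbours had very different levels. Genes within 500 kb of each other formed 10 clusters with 44 of the 65 genes. At chr11:83525779-83664683 Ccl5, Ccl9, Ccl6, Ccl3 and Ccl4 ranged from 0.533 to 115 FPKM. At chr5:90759298-90905938 only Pf4 of 7 genes reached 1 FPKM in every file, and Ppbp and Cxcl3 on its sides were listed at 0. At chr8:94745684-94812036 Cx3cl1 lay between Ccl22, at 0.430 FPKM, and Ccl17, at 1.77 FPKM. A receptor cluster on chromosome 9 held both Ccr1 and Ccr2, at 2.02 and 1.99 FPKM, and Ccr3, listed at 0.

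Near-identical stretches were sought for 64 of the 65 genes, and 21 had one. No such share was computed over all genes, so this count is not read as high or low. Besides the Ccl21 and Ccl27 copies, these include Ccl19, with Gm2564, and Cxcl2 with Cxcl3. Others reflect a neighbour on the same ground, such as Ackr1 with Cadm3 and Cxcl10 with Art3. Still others are short matches to genes that are neither copies nor neighbours. Examples are Cxcr2 with Pbld1, over 6.24% of the transcript, and Ccl9 with Sdhaf2, over 4.46%. Ccl6, Ccl28, Cxcl12, Cx3cl1, Pf4 and Ccl8 had none at a match of 100 bases, and Ccl21a was the only one of the 7 genes with a mean above 10 FPKM that did. With matches down to 50 bases Ccl28 had one too.

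The genes that carry the chemokine signal inside a cell were mostly present. The list of 28 signalling genes had a median of 10.9 FPKM and 23 genes at 1 FPKM or more in every file. It was led by the G protein subunit Gng5 at 419 ± 10.8 FPKM and the small GTPases Rac1 at 217 ± 2.80 and Rhoa at 216 ± 4.53. Many of these are used by every cell type. Pik3r5, Plcb2 and Dock2, known mainly from leukocytes, were under 1 FPKM in every file, at 0.442, 0.378 and 0.763 FPKM. Other listed genes known from leukocytes were above it in every file, among them Rgs1 at 10.4, Rgs13 at 2.92, Vav1 at 2.22 and Pik3cg at 1.41 FPKM.

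Among 9 genes that cut or hold chemokines, 8 were at 1 FPKM or more in each file. The highest were the heparan sulfate proteoglycan Sdc4 at 167 ± 6.30 FPKM, the protease Adam10, and the proteoglycan Sdc1 at 29.8 ± 2.74. Dpp4, the peptidase that trims and inactivates Cxcl12, was at 9.74 ± 0.260 FPKM. Of 11 gut homing and adhesion genes 6 did so, led by Vcam1 at 4.08 ± 0.988, Icam1 at 2.98 ± 0.348 and the integrin Itgb2 at 2.72 ± 0.227. Under 1 FPKM in every file were the integrins Itgae and Itgal, at 0.675 and 0.892 FPKM.

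Among 17 genes of other chemoattractant systems, 8 were at 1 FPKM or more in each file. The highest was 2610528A11Rik, which codes for the ligand of Gpr15, at 567, 580 and 597 FPKM (581 ± 14.8), above every chemokine in every file. Gpr15, a colon homing receptor of T cells, was at 0.316 ± 0.364 FPKM. Cd74, a receptor of the cytokine Mif besides its role in antigen presentation, was at 387 ± 15.4 FPKM, and Mif itself at 136 ± 4.88 FPKM. Gpr183, which reads oxysterols, and the formyl peptide receptor Fpr1 were under 1 FPKM in every file, as Gpr15 was, at 0.574 and 0.0761 FPKM.

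The spread between the files was then set against counting error. The test took 8771 genes, those of a single isoform whose mean reached 1 FPKM. A chi-square test of the 3 values about their weighted mean called 10 genes (0.114%) at a Benjamini-Hochberg adjusted p under 0.05. Of 22 chemokine and receptor genes tested, 0 were called and 0 had an unadjusted p under 0.05, beside 5.02% of all genes tested. The smallest p was that of Ccl6, 0.0729 before and 0.993 after adjustment, in this chi-square test with n = 3 files. Each unadjusted p came from that gene's own values by the chi-square approximation, after the files were scaled to a common median ratio across genes. Without replicate 3, 1 of 25 genes, again Ccl6, had an unadjusted p under 0.05, beside 5.03% of all genes tested. A difference that the test missed is not shown to be absent.

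Of the 31 genes with a mean of at least 1 FPKM, 8 rested on at least 100 recovered fragments and 12 on fewer than 30. For genes with several isoforms the recovered fragments are a lower bound, so fewer than 12 may truly lie under 30. The SD between files was below the spread that counting alone gives in 20 of the 31, and above 2 times that spread in none. These counts were not made over all genes, and a lower bound on fragments makes the counting spread too wide. In the test above, the chi-square over its degrees of freedom had a median of 0.517 for the 22 genes and 0.680 for all genes tested. In simulated counting noise that median was 0.714, so a value below 1 does not mark files closer than counting allows. Ackr3 came nearest to that bound, at 1.70 times.

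**Figure D5:**
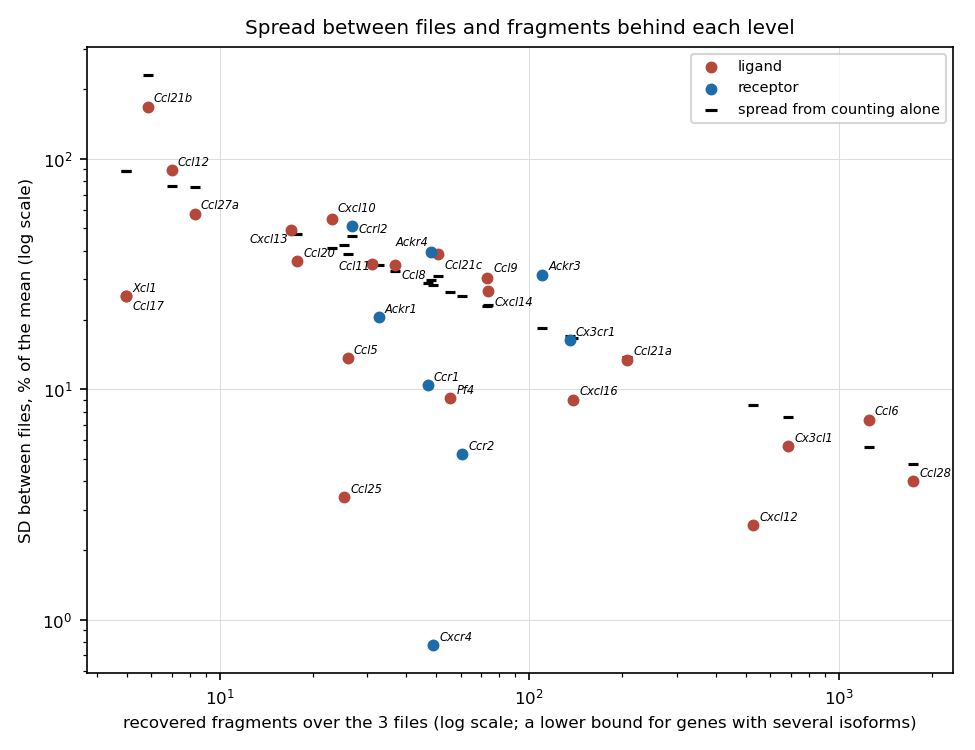
SD between the 3 files as a percent of the mean, against the fragments recovered over the 3 files, for 30 genes with a mean of at least 1 FPKM, both on log axes, with the spread expected from counting alone as black dashes. Ccl21b, with few fragments, has the largest spread, 169%, and Cxcr4 the smallest, 0.778%, and most points lie below their dash. For genes with several isoforms the fragments are a lower bound, so their dash may lie too high.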

How the data were processed

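FPKM per isoform, with a lower and an upper 95% bound, were deposited by the authors in 3 Cufflinks isoform tables, per the file headers. The mean coverage (signal) of each isoform, also deposited, was not used. TopHat2 2.1.1, Bowtie2 2.3.4.3, Cufflinks 2.2.1 and GRCm39 are named in the submitters' processing notes, but the positions are those of GRCm38: 62 of 65 genes had a start or end within 1000 bases of RefSeq on GRCm38.p6. The sources used here do not give how strand or multiply matching reads were handled.

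FPKM were summed per symbol. The upper bound less the FPKM was read as 2 standard errors, and FPKM squared over the squared error as fragments; in single-isoform genes over 800 bases with up to 30 fragments, 64.1% to 64.3% of values lay within 0.01 of a whole number. For genes with several isoforms the fragments are a lower bound. A gene listed at 0 allows 3 fragments over the 3 files; such limits cover counting error only. Scripts used Python 3.11.15, pandas 2.3.3, SciPy 1.17.1 and BLAST+ 2.17.0 (GENCODE M21 transcripts).

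Per-file values are given for genes with a mean of at least 1 FPKM, for Ccl21 and Ccl27 copies, and for partners of ligands with a mean of at least 10 FPKM; of each pathway list, the 3 highest and up to 3 under 1 FPKM in every file, in list order, are named. Other genes are named as markers or neighbours, chosen after their values were seen. Some genes that this rule takes are counted but not reported by name. The genes and lists were chosen with earlier results of these data known. The test between files was checked on simulated data. It recovered 48% of 1.5-fold and 75% of 2-fold changes set in replicate 1, with 9 calls among unchanged genes. With no change set, it made 0 calls.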

Additional observations from a re-analysis of the deposited data

How the results depend on the processing

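No paired analysis was possible because the series holds 1 group. The count of genes at 1 FPKM or more in every file, 27, stayed between 20 and 31 under thresholds of 0.5 and 2 FPKM, rescaling to TPM, the highest isoform, a mean rule and leaving out each file. The pairs with both partners, 10, became 3 at 2 FPKM. Rescaling to TPM multiplies every level by about 2.34 and gave medians of 10.6 for homeostatic, 6.59 for dual and 1.32 for inflammatory ligands and 1.31 for receptors. Counting only genes above 0 FPKM gave 5.03, 3.79 and 0.713 FPKM for homeostatic ligands, dual ligands and receptors. The homeostatic median, which was Ccl21b's own mean, was 3.72 FPKM with the highest isoform, 3.79 FPKM with dual ligands counted in, 3.79 to 6.01 FPKM when each file was left out, and 4.63 FPKM with Ccl21b, Ccl21c and Gm13304 summed as 1 gene, an alternative chosen after seeing the data. The order homeostatic, dual, inflammatory held in each of these where the 3 classes were kept. Genes that differed between files numbered 17 with all isoforms and 5 to 8 when each file was left out. Of the 65 genes, 31 were tested with all isoforms and 22 to 25 when a file was left out. Of those tested, 0 were called. Ccl21b's mean was 1.15 FPKM by its highest isoform and 0.123 FPKM without replicate 3. Genes with a near-identical stretch numbered 14 at 99% identity and 27 at 50 bases. Of the 31 genes with a mean of at least 1 FPKM, 12 rest on fewer than 30 recovered fragments, a lower bound for genes with several isoforms. The causes of these moves were not tested.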
